A study of Mus musculus with 12 samples.

Results

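The DNA replication and S-phase genes are 46 genes chosen by name, of the 37287 gene IDs in the count tables, and all 46 matched 1 gene in both tables. They were measured in 12 poly(A) RNA-seq libraries of mouse embryonic fibroblasts that lack MyoD and Myf5, the 2 transcription factors that start the skeletal muscle program. All the cells carry the genotype MyoD-/-; Myf5-/- and were grown in serum. They were exposed to lentivirus with polybrene for 24 h, moved to a differentiation medium whose base lacks serum, and harvested 20 h later. The labels give the same protocol for the library without virus and do not say whether it received polybrene. A first table holds 10 libraries. They are GFP virus at an MOI (infectious particles per cell) of 15, 30, 60 and 120, GFP virus at 1x, MyoD virus at 1x and 2x, Myf5 virus at 1x and 2x, and cells without virus. A second table holds 1 library of the 1x Chimera virus and 1 library of 1x MyoD virus of a second batch that was balanced against the Chimera. The sources used here give neither the makeup of the Chimera, nor how 1x relates to an MOI, nor the promoter of the viruses. No label says that libraries of a group came from separate cultures, so p-values measure the spread between these libraries, which may be technical and which includes their differences in dose.

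S phase is the stage of the cell cycle in which the genome is copied once. The ORC proteins, Cdc6 and Cdt1 load the MCM helicase on origins, Cdc45, Mcm10 and the GINS complex switch the helicase on, and DNA polymerases with the Pcna clamp then copy both strands from nucleotides supplied by enzymes such as ribonucleotide reductase. Most of these genes are transcribed under the control of E2F factors when cells leave G1, and cells that stop dividing, such as fibroblasts without serum or myoblasts that become muscle, lower them together. MyoD is known to start muscle differentiation along with exit from the cell cycle. In bulk RNA, fewer cells in S phase and less RNA per cell cannot be told apart.

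The members were read against the E2F word in their promoters, because that word is what many of them are known to share. RefSeq promoters of the build GRCm38.p6 were given for 39 of the 46 genes, as windows of 250 bases before to 50 bases after the start of transcription. The E2F word was searched as TTTCCCGC, TTTCGCGC, TTTGCCGC and TTTGGCGC on both strands. It was in 18 of the 39 windows (46.2%), against 2.60% of the 27025 genes with a window. The CCAAT box, searched as CCAAT on both strands, was in 23 of 39 (59.0%), against 41.1% of all genes. CAGCTG, an E-box of the kind that MyoD binds, was in 4 of 39 (10.3%), against 18.3% of all genes, and this word was added after the data had been seen. A match describes letters in the window and is not evidence that a factor was bound, and several words can overlap.

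The 6 stretches below hold an E2F word wholly before the start and belong to genes on which the results turn. Mcm5, Cdc6, Pola1 and E2f7 rose without virus, to 3.75, 4.54, 3.07 and 4.52 times the GFP mean, whereas Mcm6 and Gins3 departed from the other members. E2f8 and Rrm2, whose windows held no E2F word, stood at 4.17 and 3.75 times the GFP mean. Each stretch is 60 bases of GRCm38.p6, written 5′ to 3′ along the gene's own strand, and capitals mark the E2F word. In Mcm5 and Mcm6 the capitals hold 2 overlapping words, 1 on each strand. The counts were made on mm9, and no position was carried between the builds.
Mcm5: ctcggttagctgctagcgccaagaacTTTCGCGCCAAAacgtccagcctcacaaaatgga
Mcm6: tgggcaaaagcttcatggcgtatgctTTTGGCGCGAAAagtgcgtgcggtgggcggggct
Cdc6: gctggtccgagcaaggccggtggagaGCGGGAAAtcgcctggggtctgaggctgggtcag
Pola1: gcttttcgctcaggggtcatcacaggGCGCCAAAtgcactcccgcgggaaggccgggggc
Gins3: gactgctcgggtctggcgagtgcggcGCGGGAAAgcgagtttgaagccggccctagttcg
E2f7: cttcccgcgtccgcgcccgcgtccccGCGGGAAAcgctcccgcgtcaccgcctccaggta

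The Mcm5 stretch is chr8:75109330-75109389 on the plus strand, with its first word 153 bases before the start. The Mcm6 stretch is chr1:128359782-128359841 on the minus strand, 110 bases before the start. The Cdc6 stretch is chr11:98907987-98908046 on the plus strand, and the Pola1 stretch is chrX:93632260-93632319 on the minus strand, with the word 138 bases before the start in both. The Gins3 stretch is chr8:95633492-95633551 on the plus strand, 41 bases before the start. The E2f7 stretch is chr10:110745215-110745274 on the plus strand, 198 bases before the start. The word was in windows of genes that rose without virus against the 5 GFP libraries (Mcm5, Cdc6, Pola1 and E2f7). It was also in windows of genes that were not called there (Mcm6 and Gins3, and Cdt1 and E2f2, whose word lay after the start). This split depended on the control, since Mcm6 was called up against 1x GFP alone.

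Library totals, in M (mega), ran from 17.9 to 22.4 M counts in the 4 MOI libraries, from 68.3 to 81.5 M in the other 6 libraries of the first table, and were 25.1 and 23.7 M in the second. Levels are given as CPM, which are counts scaled to 1 common library total of nuclear genes. They compare libraries and not genes, since they are not divided by gene length. Myod1 stood at 309.4 and 617.4 CPM in the 1x and 2x MyoD libraries and at 338.4 CPM in the second batch, against 23.0 CPM in Chimera and 5.21 to 5.99 CPM in the other libraries of the first table. Myf5 stood at 149.5 and 249.1 CPM in the 1x and 2x Myf5 libraries and at 172.2 CPM in the Chimera library, against 11.9 to 24.4 CPM elsewhere. Which part of each gene is deleted is not given, so the counts in the other libraries do not test the genotype. The 10 fibroblast markers summed to 11352 to 21662 CPM, highest at an MOI of 15 and lowest in 2x MyoD. The 5 macrophage markers summed to 17.1 to 26.9 CPM. Of these Adgre1 was at 0 in every library and Ptprc was too low to be tested, whereas Cd68, Csf1r and Cd14 were high enough. The endothelial and epithelial lists each summed to at most 2.53 CPM. Exons of 16 members overlap another gene in GENCODE vM21, in nearly every case on the opposite strand (Mcm7 with Ap4m1 and Cops6, Tk1 with Afmid, E2f8 with Gm2788), and whether counting used strand is not given.

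**Figure D1:**
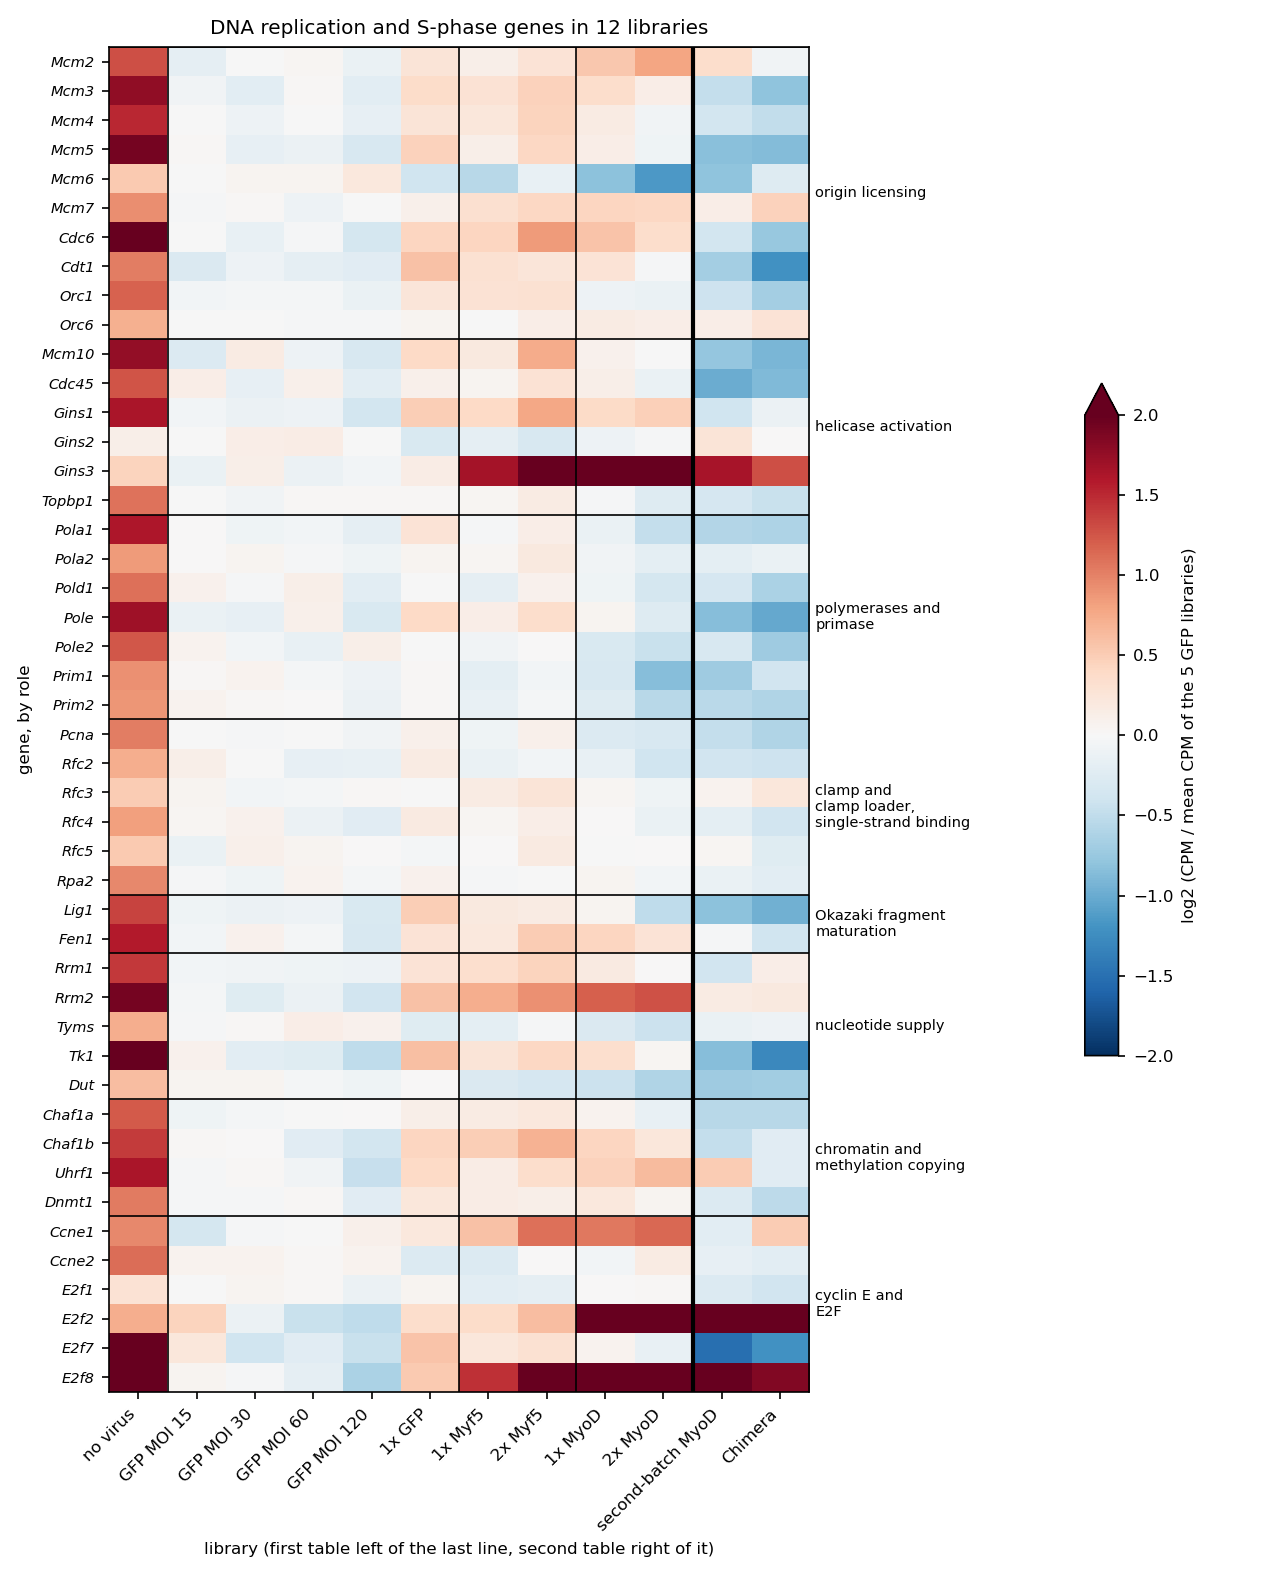
Level of the 46 members in each of the 12 libraries, as log2 of the CPM over the mean CPM of the 5 GFP libraries (colour, clipped at 2 on the log2 scale), with genes in rows by role and libraries in columns. The column without virus is red in nearly every row, whereas the MyoD, Myf5 and Chimera columns are dark red in only a few rows such as Gins3 and E2f8.

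The comparison of cells without virus with GFP virus asks how the members stood in cells that were not transduced. Nearly all members were higher without virus: 41 of 46 passed the test upwards (edgeR quasi-likelihood test, adjusted p under 0.05 over 13825 genes) and 0 downwards, where 5.83% of all genes were called up and 2.52% down. The median log2 fold change of the members was 1.16, against -0.02 over all genes, and all 46 values were above 0. No member fell at an unadjusted p under 0.05 either, and DESeq2 called 43 up and 0 down (9.59% and 8.58% of all genes). The cells without virus are 1 library, so its spread was taken from the other groups. It was the highest of the 10 libraries of the first table for 41 members (16.5% of all genes). It lay above all 5 GFP libraries for 45 members (25.5% of all genes) and below all 5 for 0 (32.2%). Summed over the members it held 2566 CPM, against 1099 to 1297 CPM in the GFP libraries.

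Among the genes of origin licensing, 8 of 10 rose. Cdc6, which loads the helicase, was at 9.29 CPM without virus and at 2.03, 1.85, 2.01 and 1.59 CPM at an MOI of 15, 30, 60 and 120 and 2.75 CPM in 1x GFP. Its log2 fold change against the 5 GFP libraries was 2.19 ± 0.25 (SE, edgeR, adjusted p = 0.002). Mcm5, a subunit of the helicase ring, was at 92.6 CPM without virus and at 25.0, 22.1, 22.7, 19.7 and 33.9 CPM in the GFP libraries in the same order, a log2 fold change of 1.94 ± 0.23 (edgeR, adjusted p = 0.0021). For both genes the library without virus lay well clear of the GFP libraries, of which 1x GFP was the highest. The other subunits Mcm2, Mcm3, Mcm4 and Mcm7 rose by 0.98 to 1.81 on the log2 scale. Mcm6, of the same ring, was at 143 CPM without virus against 76.3 to 116 CPM in the GFP libraries, a difference of 0.57 ± 0.20 that was not called (edgeR, adjusted p = 0.105). Cdt1, the partner of Cdc6, was at 32.1 CPM against 13.0 to 23.9 CPM (1.04 ± 0.29, edgeR, adjusted p = 0.0585). Neither range overlapped the value without virus. The origin recognition genes Orc1 (1.21 ± 0.16) and Orc6 (0.75 ± 0.09) rose.

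Of the 6 genes of helicase activation 4 rose, and the 2 that did not are subunits of the 4-part GINS complex. Gins1 was at 7.01 CPM without virus against 1.75 to 3.18 CPM in the GFP libraries (1.64 ± 0.28, edgeR, adjusted p = 0.00869). Gins2 was at 49.4 CPM against 36.7 to 50.2 CPM, inside the range of the GFP libraries and the only member with such an overlap. Gins3 was at 11.6 CPM against 7.80 to 9.50 CPM (0.48 ± 0.24, edgeR, adjusted p = 0.212). Cdc45 (1.30 ± 0.16), Mcm10 (1.78 ± 0.26) and Topbp1 (1.12 ± 0.09), which help to switch the helicase on, rose.

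All 7 polymerase and primase genes rose. Pola1, the catalytic subunit of the polymerase that starts each new strand, was at 60.3 CPM without virus and at 19.9, 18.4, 19.0, 17.4 and 23.6 CPM in the GFP libraries (1.65 ± 0.16, edgeR, adjusted p = 0.00165). Pole, the catalytic subunit of the leading-strand polymerase, stood at 1.72 ± 0.22 and Pold1, of the lagging-strand polymerase, at 1.15 ± 0.14. The primase genes Prim1 (0.95 ± 0.15) and Prim2 (0.93 ± 0.11) rose less in size, and no test was made between genes. The clamp Pcna, the clamp loader genes Rfc2, Rfc3, Rfc4 and Rfc5 and the single-strand binding gene Rpa2 all rose, with a median of 0.82. Pcna was at 151 CPM without virus against 71.3 to 80.0 CPM. Fen1 (1.62 ± 0.18) and Lig1 (1.39 ± 0.26), which trim and seal Okazaki fragments, rose as well.

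All 5 genes of nucleotide supply rose. Tk1, the thymidine kinase of S phase, was at 65.5 CPM without virus and at 14.8, 12.1, 11.8, 9.82 and 21.3 CPM in the GFP libraries, and its log2 fold change of 2.25 ± 0.30 was the largest of the members against the 5 GFP libraries (edgeR, adjusted p = 0.00309). Against 1x GFP alone Tk1 stood at 1.62, below Cdc6 at 1.76. Rrm2, the regulated subunit of ribonucleotide reductase, was at 91.9 CPM against 18.7 to 36.6 CPM (1.93 ± 0.27, edgeR, adjusted p = 0.00377). Rrm1 stood at 1.45 ± 0.14, and Tyms and Dut, which make and guard the thymidine pool, at 0.78 ± 0.12 and 0.66 ± 0.09. The 4 genes that copy chromatin and DNA methylation (Chaf1a, Chaf1b, Uhrf1 and Dnmt1) rose by 1.08 to 1.67 on the log2 scale.

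Of the 6 cyclin E and E2F genes 5 rose. E2f7, a repressor of the E2F family that is itself an E2F target, was at 24.3 CPM without virus and at 6.28, 4.09, 4.60, 3.94 and 8.04 CPM in the GFP libraries (2.19 ± 0.30, edgeR, adjusted p = 0.00369). E2f8, its close relative, was at 16.4 CPM against 2.54 to 5.68 CPM (2.06 ± 0.36, edgeR, adjusted p = 0.0101). The activator E2f1 was at 64.0 CPM against 48.1 to 54.3 CPM, a rise of 0.33 ± 0.08. E2f2 was at 1.42 CPM against 0.60 to 1.17 CPM and was not called (edgeR, adjusted p = 0.235).

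Against the 1x GFP library alone, in a fit that gave the 4 MOI libraries their own group, 36 members rose and 0 fell (3.37% and 1.57% of all genes), with a median of 0.97. Of these, 35 were also called against all 5 GFP libraries. Rfc2, Rfc4, Lig1, Ccne1, E2f1 and E2f8 were not called there, and Mcm6 was (0.91, edgeR, adjusted p = 0.0422). Related genes of the cell cycle were counted against all 5 GFP libraries and then against 1x GFP alone. Against the 5 libraries 5.83% of all genes rose and 2.52% fell. Of 46 other replication genes 27 rose and 0 fell (Hells, a chromatin remodeller, by 1.45 ± 0.14), and 22 rose and 0 fell against 1x GFP. Of 33 genes of mitosis and the G2-M step 33 rose (Bub1, of the spindle checkpoint, by 1.58 ± 0.16), and 30 rose and 0 fell against 1x GFP. Of 29 regulators of the G1-S step 8 rose and 0 fell, among them Skp2 (0.81 ± 0.12), which marks cell cycle inhibitors for destruction, and 4 rose and 0 fell against 1x GFP. The fibroblast markers of this library summed to 20993 CPM, within the GFP range, but their median of 1306 CPM lay below the 1535 to 2008 CPM of the GFP libraries, and the part of this in the members' values was not tested. Its muscle markers summed to 1.49 CPM, against 1.43 to 2.54 CPM with GFP virus. Virus itself, and any difference in handling that came with it, cannot be told apart in 1 library.

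**Figure D2:**
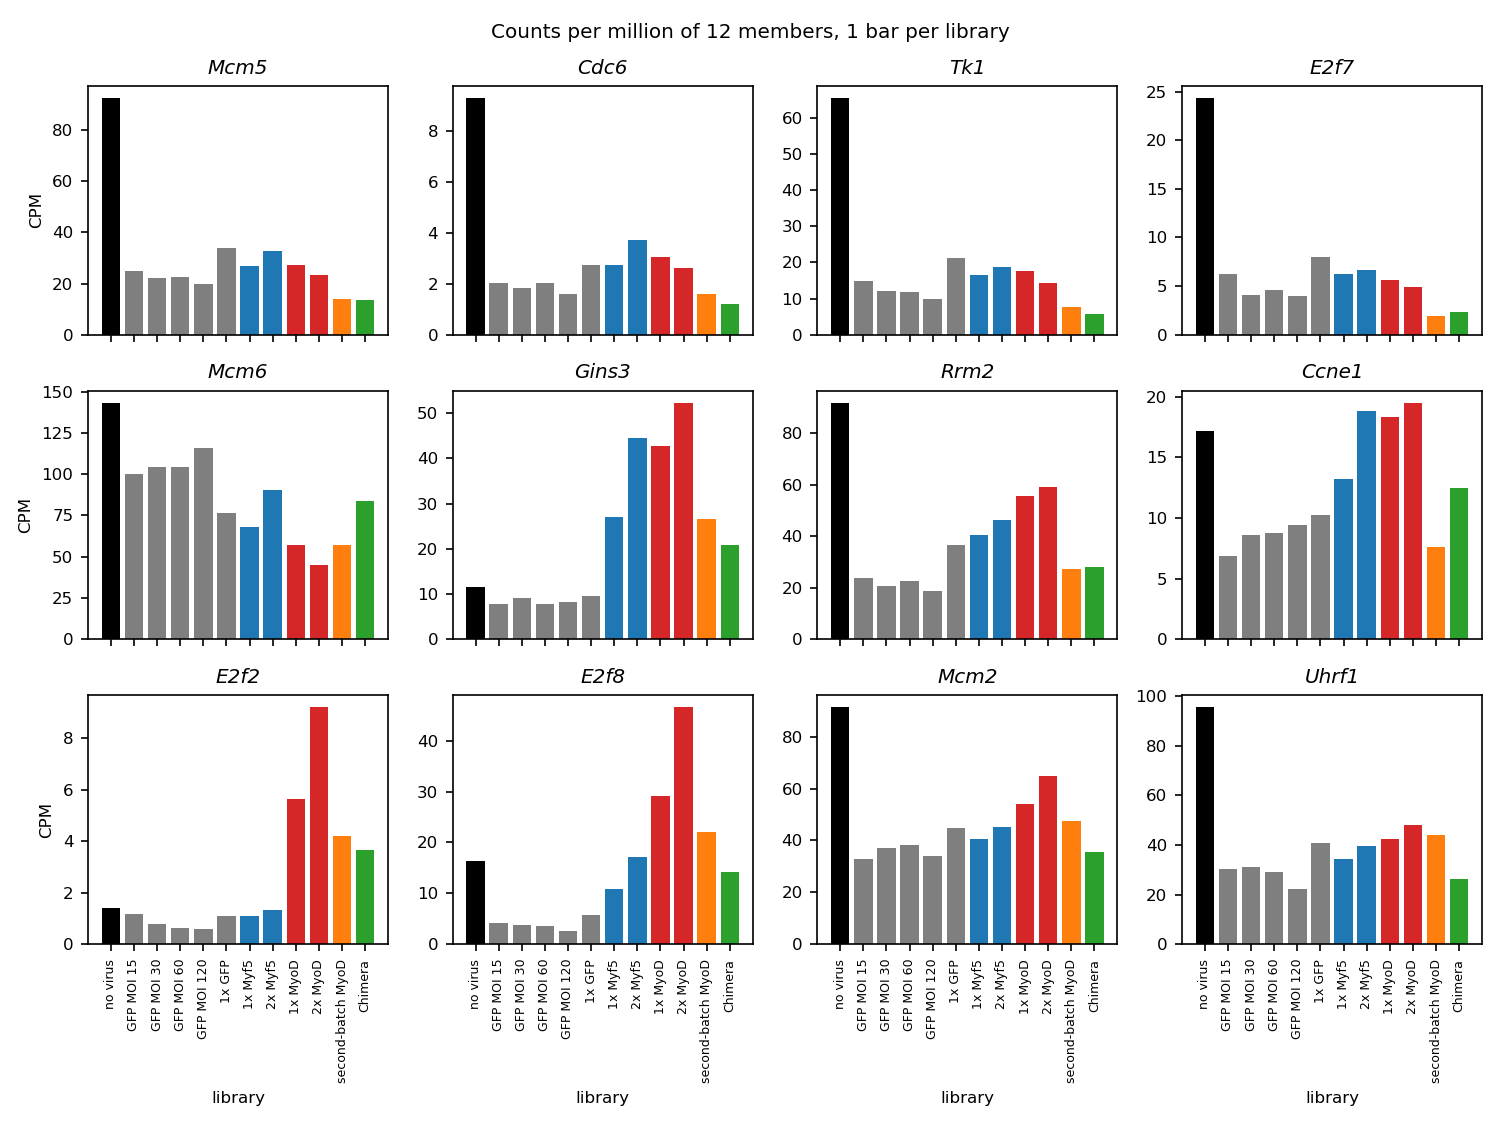
CPM of 12 members (y axis, starting at 0) in each of the 12 libraries (x axis), 1 bar per library. Mcm5, Cdc6, Tk1 and E2f7 are highest without virus, at 92.6, 9.29, 65.5 and 24.3 CPM, whereas Gins3, E2f2 and E2f8 are highest in 2x MyoD, at 52.3, 9.19 and 46.6 CPM.

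The GFP libraries were compared among themselves, since they are the controls of the other comparisons. Against 1x GFP the 4 MOI libraries held lower levels of many members: 16 fell and 1 rose of 46 (12.2% and 12.1% of all genes), with a median of -0.31 against -0.00 over all genes. Rrm2 was at 23.9, 20.7, 22.6 and 18.7 CPM at the 4 MOI and at 36.6 CPM in 1x GFP, a log2 fold change of -0.82 ± 0.12 (edgeR, adjusted p = 0.00342). Cdt1 was at 13.0 to 14.8 CPM at the 4 MOI and at 23.9 CPM in 1x GFP (-0.84 ± 0.11, edgeR, adjusted p = 0.00219). In both genes 1x GFP lay above all 4 libraries. Tk1 (-0.87 ± 0.18), E2f7 (-0.82 ± 0.20) and Gins1 (-0.71 ± 0.19) also fell, and Gins2 rose by 0.32 ± 0.09. The MOI libraries hold 17.9 to 22.4 M counts and 1x GFP 81.5 M, and the part of depth in these differences was not tested. Without the library at an MOI of 30, or without that at 60, 9 members were called, all down (7.83% of all genes up and 7.90% down without 30, 7.93% and 7.91% without 60). Among the related genes 8 of 33 mitosis genes fell and 0 rose, and of the G1-S regulators Ccnd1, cyclin D1, fell by 0.78 and Myc by 1.55 on the log2 scale.

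Along the MOI series itself, 1 member rose and 2 fell per doubling of the MOI, of 45 tested (4.06% and 3.42% of 13383 genes). E2f2 was too low to be tested. Tk1 fell from 14.8 CPM at an MOI of 15 to 12.1, 11.8 and 9.82 CPM at 30, 60 and 120, a slope of -0.18 ± 0.05 in log2 per doubling (edgeR, adjusted p = 0.0198). Uhrf1, which recruits the maintenance methyltransferase, was at 30.4, 31.2, 29.2 and 22.4 CPM (-0.13 ± 0.04, edgeR, adjusted p = 0.0439). Mcm6 was at 99.9, 104, 105 and 116 CPM (0.07 ± 0.02, edgeR, adjusted p = 0.0484). The library at an MOI of 120 was the lowest of the 10 libraries for 19 members (11.8% of all genes), and without it 0 members were called (1.69% of all genes up and 0.85% down). DESeq2 also called 0 (2.15% and 1.48%). Without the MOI of 60, 5 were called (6.05% and 5.65%), and 1 was called without that of 15 (2.33% and 1.66%) or 30 (3.22% and 2.16%). Of the mitosis genes 16 of 33 fell and 0 rose, with Mki67, a marker of cycling cells, at -0.12 ± 0.02. Of 29 G1-S regulators 3 rose and 0 fell per doubling. Cdkn1a, the p21 inhibitor of cyclin-dependent kinases, rose by 0.09 ± 0.02. The D cyclins Ccnd3 and Ccnd2, which go with cell cycle entry, rose by 0.08 ± 0.02 and 0.07 ± 0.02.

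The comparison of MyoD virus with GFP virus asks how the S-phase genes stood with MyoD in cells moved to differentiation medium. The members did not move as a block: 8 rose and 7 fell (21.4% and 20.9% of all genes), with a median log2 fold change of 0.06 against -0.03 over all genes. The members' share of calls was thus no larger than that of all genes. The rises were Mcm2, Mcm7, Rrm2, Gins3, Uhrf1, Ccne1, E2f2 and E2f8, and the falls were Mcm6, Pcna, Tyms, Pole2, Prim1, Prim2 and Dut. Against 1x GFP alone 7 members rose and 9 fell (15.1% and 15.4%) and the median was -0.13, so its sign depended on the control. Both MyoD libraries lay above all 5 GFP libraries for 10 members (23.2% of all genes) and below all 5 for 7 (28.2%). In both fits 7 rises (all but Uhrf1) and 5 falls (Mcm6, Pcna, Prim1, Prim2 and Dut) were called. The counts also rested on single libraries: 7 members were called without 2x MyoD (6 up and 1 down, against 8.45% and 4.92% of all genes) and 25 without 1x GFP (18 up and 7 down, against 30.1% and 28.3%).

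The largest rises were in 3 genes. E2f8, a repressor of E2F targets, was at 29.2 and 46.6 CPM in 1x and 2x MyoD and at 4.10, 3.86, 3.49, 2.54 and 5.68 CPM at an MOI of 15, 30, 60 and 120 and in 1x GFP. Its log2 fold change was 3.28 ± 0.29 (edgeR, adjusted p = 0.000127) and both MyoD libraries lay above every other library of the first table. E2f2, an activator, was at 5.62 and 9.19 CPM with MyoD and at 0.60 to 1.17 CPM with GFP (3.12 ± 0.28, edgeR, adjusted p = 0.00013). Gins3, the GINS subunit, was at 42.8 and 52.3 CPM with MyoD and at 7.80, 9.24, 7.87, 8.23 and 9.50 CPM with GFP (2.52 ± 0.18, edgeR, adjusted p = 4.41e-05). The groups did not overlap in any of the 3. The other GINS members stayed near their controls: Gins1 stood at 0.45 ± 0.24 and Gins2 at -0.01 ± 0.11, and neither was called. Likewise E2f1 (0.07 ± 0.07) and E2f7 (-0.02 ± 0.27) were not called.

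Ccne1, the cyclin that drives entry into S phase, was at 18.3 and 19.5 CPM with MyoD and at 6.89, 8.62, 8.76, 9.42 and 10.2 CPM with GFP (1.15 ± 0.17, edgeR, adjusted p = 0.00113), whereas Ccne2 stood at 0.12 ± 0.14. Rrm2 was at 55.8 and 59.2 CPM with MyoD and at 18.7 to 36.6 CPM with GFP (1.26 ± 0.23, edgeR, adjusted p = 0.00277), while its partner Rrm1 stood at 0.14 ± 0.12. Mcm2 was at 54.1 and 65.0 CPM against 32.9 to 44.7 CPM (0.72 ± 0.13, edgeR, adjusted p = 0.00322) and Mcm7 at 63.6 and 62.9 CPM against 44.0 to 51.0 CPM (0.46 ± 0.07, edgeR, adjusted p = 0.0016). Uhrf1 was at 42.4 and 48.1 CPM against 22.4 to 40.9 CPM (0.60 ± 0.19, edgeR, adjusted p = 0.0336) and was not called against 1x GFP (0.16, edgeR, adjusted p = 0.534).

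Mcm6 fell with MyoD. It was at 56.9 and 45.2 CPM with MyoD and at 99.9, 104, 105, 116 and 76.3 CPM with GFP, a log2 fold change of -0.92 ± 0.17 (edgeR, adjusted p = 0.00295). Both MyoD libraries lay below all GFP libraries. Of the 6 MCM ring genes, Mcm2 and Mcm7 therefore rose, Mcm6 fell, and Mcm3 (0.29 ± 0.16), Mcm4 (0.09 ± 0.13) and Mcm5 (0.07 ± 0.20) were not called. Against 1x GFP alone Mcm2 (0.42) and Mcm7 (0.32) rose and Mcm6 (-0.57) fell, while Mcm3, Mcm4 and Mcm5, at -0.12, -0.20 and -0.42, were not called. Among the polymerases and primase, 3 of 7 fell and 0 rose, where 20.9% of all genes fell and 21.4% rose. Prim1 was at 12.1 and 8.35 CPM with MyoD and at 14.2 to 16.0 CPM with GFP (-0.52 ± 0.13, edgeR, adjusted p = 0.0127). Dut, which keeps uracil out of DNA, was at 20.0 and 17.9 CPM against 25.4 to 28.1 CPM (-0.46 ± 0.07, edgeR, adjusted p = 0.00157). Prim2 (-0.35 ± 0.10), Pole2 (-0.32 ± 0.11), Tyms (-0.31 ± 0.10) and Pcna (-0.25 ± 0.08) fell by less in size. Pola1 (-0.25 ± 0.14), Lig1 (-0.16 ± 0.22), Cdt1 (0.16 ± 0.24) and Rfc2 (-0.22 ± 0.12) were called down only in the fit against 1x GFP, at -0.55, -0.68, -0.45 and -0.42. Cdc6 (0.49 ± 0.22), Cdc45 (0.04 ± 0.14) and Dnmt1 (0.18 ± 0.11) were called in neither fit.

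**Figure D3:**
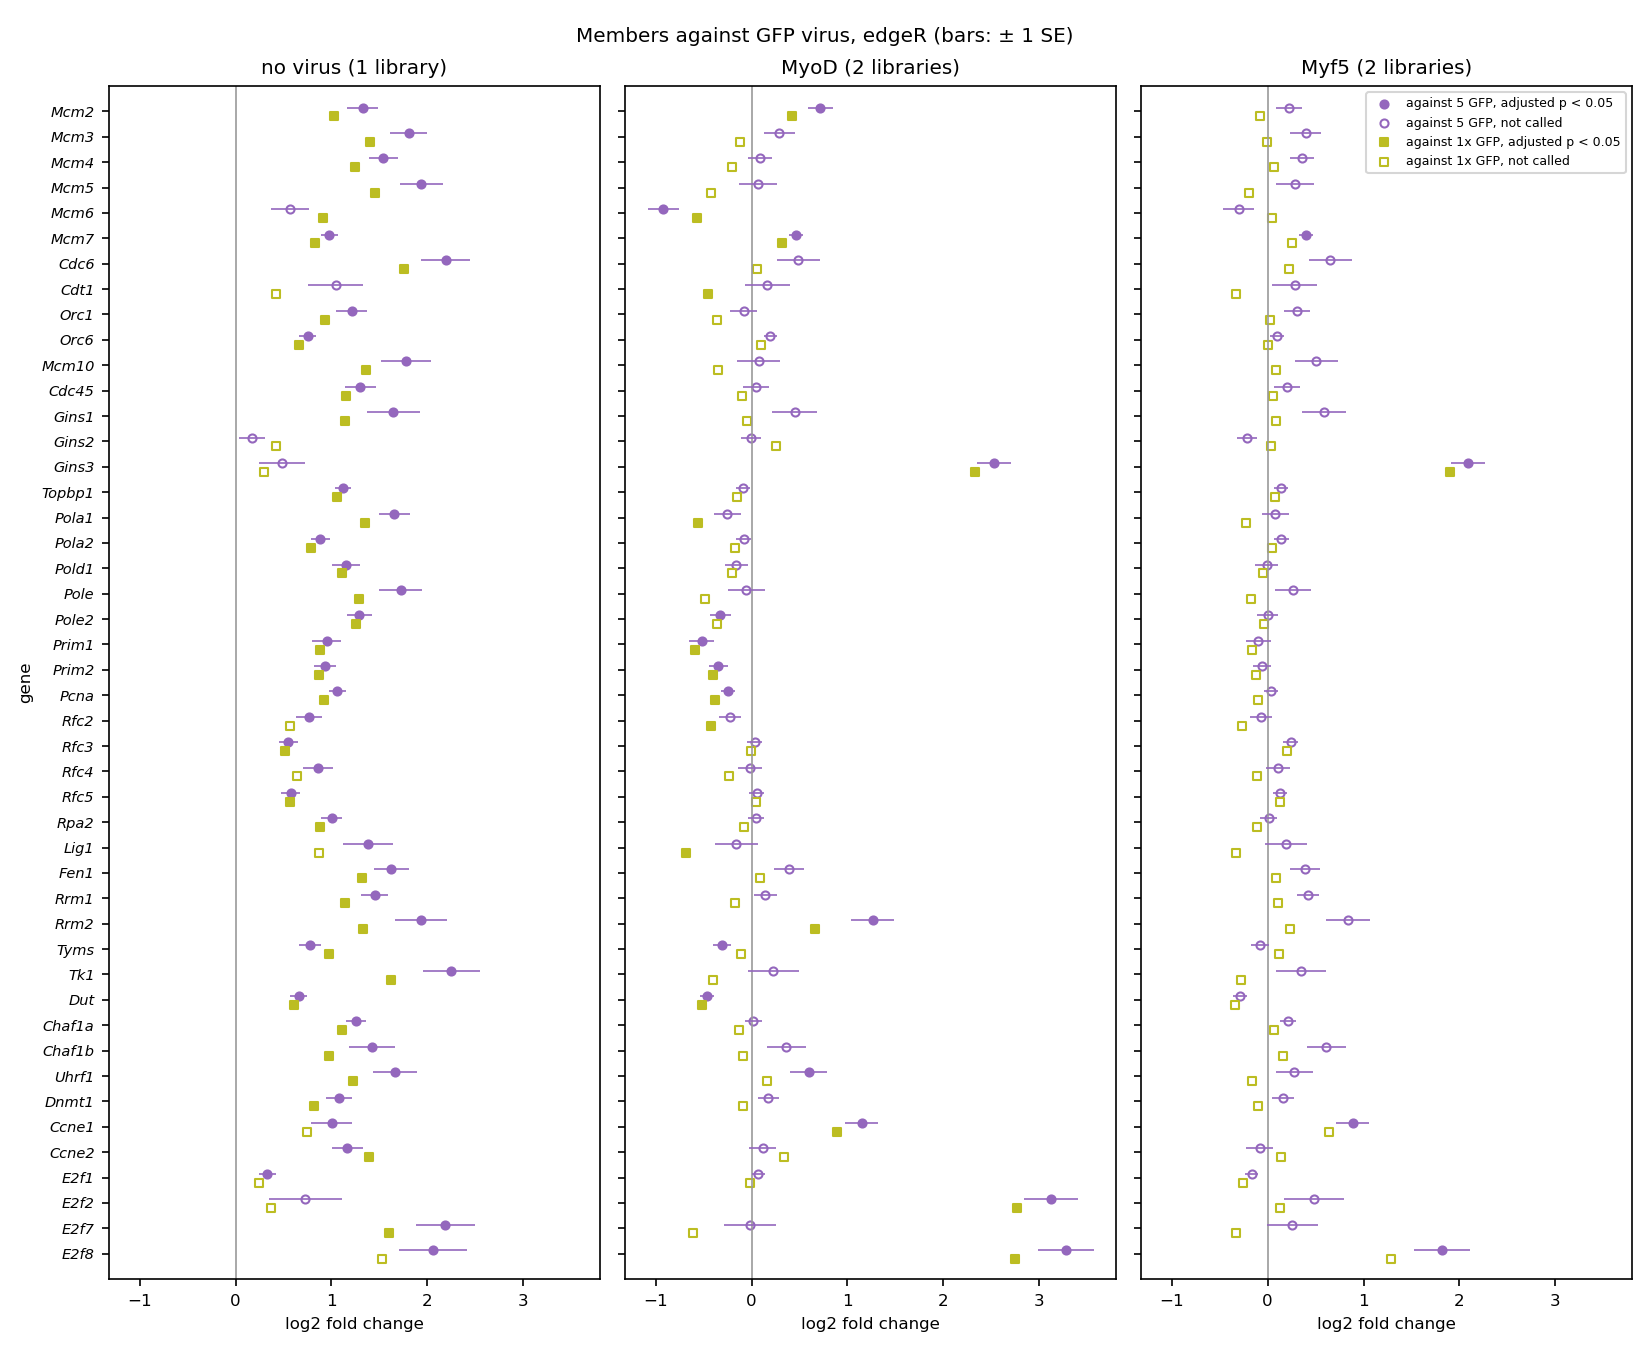
Log2 fold change of the 46 members (y axis) without virus, with MyoD and with Myf5, against the 5 GFP libraries (circles, with bars of 1 SE) and against 1x GFP alone (squares), filled where the adjusted p was under 0.05. The circles without virus all lie above 0, those of MyoD lie on both sides, and Gins3 stands apart in MyoD and Myf5 at 2.52 and 2.09.

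The related genes of the cell cycle held calls in both directions under MyoD, as did all genes. Of all genes 21.4% rose and 20.9% fell, and 15.1% and 15.4% against 1x GFP alone. Of 46 other replication genes 4 rose and 8 fell, and 3 rose and 4 fell against 1x GFP alone. Asf1b, a histone chaperone, stood at 1.35 ± 0.17, and Cdc7, the kinase that fires origins, at -1.26 ± 0.26 and, against 1x GFP, at -0.47 (edgeR, adjusted p = 0.0233). Of 33 mitosis genes 2 rose and 4 fell with a median of -0.06, and against 1x GFP 1 rose and 2 fell with a median of -0.35 and 2 of 33 values above 0. Ccna2, cyclin A, and Cdk1, its kinase partner, stood at 0.09 ± 0.15 and 0.07 ± 0.11, and at -0.23 and -0.18 against 1x GFP, with no call in either fit. Mki67 fell by 0.42 ± 0.12 on the log2 scale, and its -0.40 against 1x GFP was not called. Of 29 G1-S regulators 10 rose and 7 fell, and 9 rose and 4 fell against 1x GFP. Cdkn1a was at 708 and 1073 CPM with MyoD and at 347, 365, 397, 416 and 303 CPM with GFP (1.34 ± 0.16, edgeR, adjusted p = 0.000396). Rb1, the pocket protein that holds E2F back, was at 146 and 262 CPM against 41.2 to 51.1 CPM (2.14 ± 0.19, edgeR, adjusted p = 0.00013). Skp2 rose by 1.06 ± 0.10 and Mycl by 6.32 ± 0.32. The 7 muscle markers summed to 744 and 2460 CPM in 1x and 2x MyoD and the fibroblast markers to 15545 and 11352 CPM, against 20219 to 21662 CPM with GFP. The part of this change in cell state in the members' values was not tested.

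Myf5 virus against GFP virus gave fewer calls: 4 members rose and 0 fell (3.81% and 2.29% of all genes), with a median of 0.22 against -0.00 over all genes. Both Myf5 libraries lay above all 5 GFP libraries for 12 members (15.0% of all genes) and below all 5 for 2 (16.6%). At an unadjusted p under 0.05, 16 members were higher and 2 lower, where 28.5% of all genes passed in either direction. DESeq2 called 7 up and 1 down, against 7.66% and 7.84% of all genes. Gins3 was at 27.1 and 44.4 CPM in 1x and 2x Myf5 and at 7.80 to 9.50 CPM with GFP (2.09 ± 0.18, edgeR, adjusted p = 0.000695). E2f8 was at 10.8 and 17.2 CPM against 2.54 to 5.68 CPM (1.82 ± 0.30, edgeR, adjusted p = 0.0116). In both genes the Myf5 libraries lay above all GFP libraries. Ccne1 was at 13.2 and 18.8 CPM against 6.89 to 10.2 CPM (0.89 ± 0.17, edgeR, adjusted p = 0.0223) and Mcm7 at 59.4 and 63.1 CPM against 44.0 to 51.0 CPM (0.40 ± 0.07, edgeR, adjusted p = 0.0195). E2f2 was at 1.10 and 1.31 CPM against 0.60 to 1.17 CPM (0.48 ± 0.31, edgeR, adjusted p = 0.326).

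The other genes named for their role were not called with Myf5. Rrm2 stood at 0.84 ± 0.23 (edgeR, adjusted p = 0.0617), Cdc6 at 0.65 ± 0.22, Mcm2 at 0.22 ± 0.14, Cdc45 at 0.20 ± 0.14, Lig1 at 0.19 ± 0.22, Dnmt1 at 0.16 ± 0.11 and Pola1 at 0.08 ± 0.14. Pcna stood at 0.04 ± 0.08, Tyms at -0.08 ± 0.10, Ccne2 at -0.08 ± 0.14 and E2f1 at -0.17 ± 0.07. Against 1x GFP alone Gins3 was the 1 member called (1.90, edgeR, adjusted p = 0.0244; 1.03% of all genes rose), and the median was 0.03. The count rested on the control and on single libraries: 26 members were called without 1x GFP (23 up and 3 down, against 18.2% and 18.5% of all genes). Without the MOI of 30, 2 were called, where 1.51% of all genes rose and 0.276% fell, and without 2x Myf5 1 was called, where 0.398% rose and 0.0145% fell. Among the related genes 2 of 46 other replication genes rose and 1 fell, and 1 of 33 mitosis genes rose and 0 fell. Of 29 G1-S regulators 3 rose and 1 fell, with Rb1 at 0.87 ± 0.20 and Mycl at 4.65 ± 0.32. Over all genes 3.81% rose and 2.29% fell. Against 1x GFP alone 0 of 46, 0 of 33 and 1 of 29 were called, with Mycl at 5.27 called and Rb1 at 1.05 not (edgeR, adjusted p = 0.144). Cdkn1a stood at 0.52 ± 0.16 and was not called. The muscle markers summed to 22.7 and 97.8 CPM in 1x and 2x Myf5 and the fibroblast markers to 17678 and 14728 CPM, against 20219 to 21662 CPM with GFP. Their part in the members' values was not tested.

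MyoD was set directly against Myf5 to see where the factors differed. Of the members 1 was higher with MyoD and 0 lower (4.21% and 1.29% of all genes), and the median was -0.16. E2f2, at 5.62 and 9.19 CPM with MyoD and 1.10 and 1.31 CPM with Myf5, was higher by 2.64 ± 0.36 on the log2 scale (edgeR, adjusted p = 0.0229). E2f8 was higher by 1.46 ± 0.36, just short of the threshold (edgeR, adjusted p = 0.0512). Gins3 was higher with MyoD by 0.43 ± 0.22 and was not called (edgeR, adjusted p = 0.259). At 2x it was at 52.3 CPM with MyoD and 44.4 CPM with Myf5, and 1x MyoD held 42.8 CPM. At an unadjusted p under 0.05, 4 members were higher and 9 lower with MyoD, where 24.4% of all genes passed in either direction. DESeq2 called 4 up and 1 down, against 8.41% and 4.25% of all genes. With the 1x or 2x dose as a term, added after seeing the data, 2 were higher and 0 lower, against 6.68% and 3.44%. When the fit gave the 4 MOI libraries their own group, 5 were higher (E2f2, E2f8, Mcm2, Rrm2 and E2f1) and 4 lower (Mcm6, Pcna, Rrm1 and Orc1), where 10.7% and 8.74% of all genes were. In that fit Mcm6 stood at -0.62 (edgeR, adjusted p = 0.0248) and Pcna at -0.28 (edgeR, adjusted p = 0.0265). Both MyoD libraries lay below both Myf5 libraries for 23 members (33.8% of all genes) and above both for 7 (29.9%). On leaving out 1 library the count of calls ran from 0 to 9: it was 9 without 1x GFP (11.8% of all genes higher and 7.79% lower), 5 without 1x MyoD (9.21% and 6.08%), and 0 without 2x MyoD, without either Myf5 library, or without the MOI of 30 or 60. In those last 5 fits at most 0.117% of all genes were higher and at most 0.00729% lower. Of 46 other replication genes 2 were higher with MyoD and 0 lower, with a median of -0.06. Of 33 mitosis genes 1 was higher and 1 lower, with a median of -0.28 and 3 of 33 values above 0. Of 29 G1-S regulators 6 were higher with MyoD and 1 lower. This balance depended on the fit, since 8 were higher and 6 lower with the MOI libraries apart. In the main fit the regulators higher with MyoD included Rb1 (1.27 ± 0.24) and Cdkn1a (0.82 ± 0.20). They also included Cdkn1c, the p57 inhibitor, at 6.97 and 22.0 CPM with MyoD and 0.69 and 1.93 CPM with Myf5 (3.50 ± 0.66, edgeR, adjusted p = 0.0272).

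Each factor was given at 1x and 2x, 1 library each, and the members' ratios of 2x to 1x differed in sign between the factors. At 2x Myf5, 41 members were higher than at 1x and 5 lower, with a median log2 ratio of 0.16, where 50% of all genes were higher. At 2x MyoD, 12 were higher and 34 lower, with a median of -0.15, where 44.3% of all genes were higher. Mcm6 went from 68.2 to 90.6 CPM with Myf5 and from 56.9 to 45.2 CPM with MyoD, and Prim1 from 13.2 to 14.5 CPM and from 12.1 to 8.35 CPM. E2f8 rose with dose in both, from 10.8 to 17.2 CPM and from 29.2 to 46.6 CPM, and Gins3 from 27.1 to 44.4 CPM and from 42.8 to 52.3 CPM. These differences did not pass a test. For a dose effect common to both factors 0 members were called up or down (3 of 13825 genes, 0.0217%, were called). At an unadjusted p under 0.05, 2 of 46 members passed (Gins3 and E2f8), where 11.1% of all genes did, so the members' share was no larger. DESeq2 called 0 members, but 182 genes up and 102 down over all. For a difference in dose effect between MyoD and Myf5, 0 members and 0 of all genes were called by edgeR (275 genes had an unadjusted p under 0.05), DESeq2 called 0 members (5 genes up and 3 down over all), and Prim1 was the 1 member with an unadjusted p under 0.05. Of the 46 interaction values 42 were below 0, with a median of -0.26 against -0.00 over all genes. The members were not alone in this. The median was -0.42 in the mitosis genes, with 2 of 33 values above 0. It was -0.15 in the other replication genes (11 of 46 above 0) and -0.09 in the G1-S regulators (13 of 29 above 0).

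**Figure D4:**
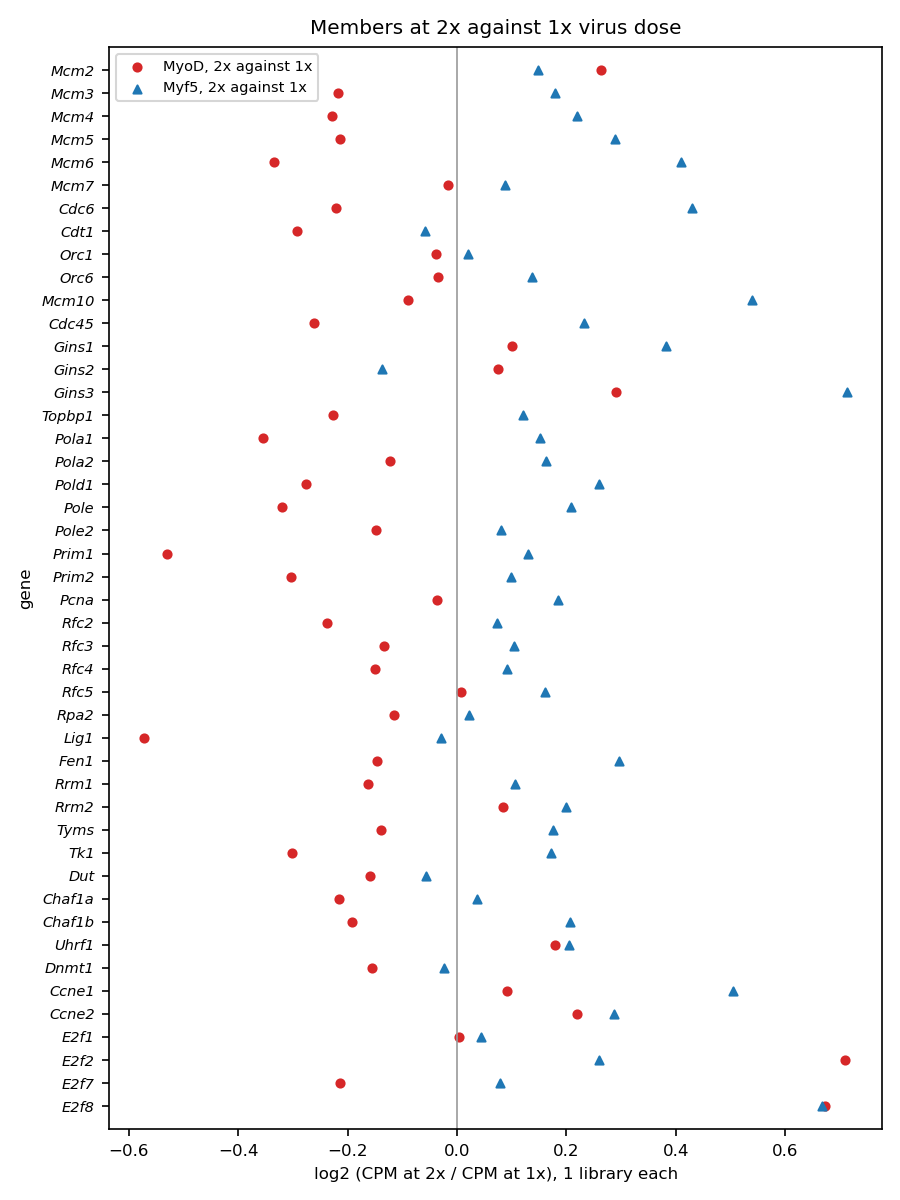
Log2 ratio of CPM at 2x over 1x (x axis) of the 46 members (y axis) for MyoD (circles) and Myf5 (triangles), 1 library at each dose. Most triangles lie right of 0 (41 of 46) and most circles left of it (34 of 46), while E2f8 lies right of 0 for both.

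The Chimera library was compared with MyoD of the second batch in their own table. With 1 library each there is no test, so a gene was counted as different where its CPM differed at least 1.5-fold and the exact 95% binomial interval of the ratio, which covers counting error only, left out 1. Of the 46 members 1 was higher and 2 lower in Chimera, where 6.92% and 6.80% of 13378 genes were. Ccne1 was at 12.5 CPM in Chimera and 7.58 CPM in second-batch MyoD, a ratio of 1.64 (interval 1.36 to 1.99). Uhrf1 was at 26.3 against 43.9 CPM, a ratio of 0.598 (0.541 to 0.662), and E2f8 at 14.2 against 22.0 CPM, a ratio of 0.648 (0.563 to 0.745). Just short of the fold limit lay Mcm6, at 83.7 against 57.2 CPM (1.47, interval 1.37 to 1.57), Rrm1 (1.43) and Cdt1 (0.69). E2f2 was at 3.66 and 4.19 CPM, a ratio of 0.873 (0.646 to 1.18), and Gins3 at 20.9 and 26.7 CPM, a ratio of 0.782 (0.694 to 0.882). In total 31 of 46 members were lower in Chimera, with a median log2 ratio of -0.11 against -0.02 over all genes. The related lists were lower as well. In Chimera 30 of 45 other replication genes (median -0.14), 18 of 29 G1-S regulators (-0.12) and 30 of 33 mitosis genes (-0.29) were lower. The muscle markers summed to 952 CPM in Chimera and 2670 CPM in second-batch MyoD, and their part in the ratios was not tested.

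**Figure D5:**
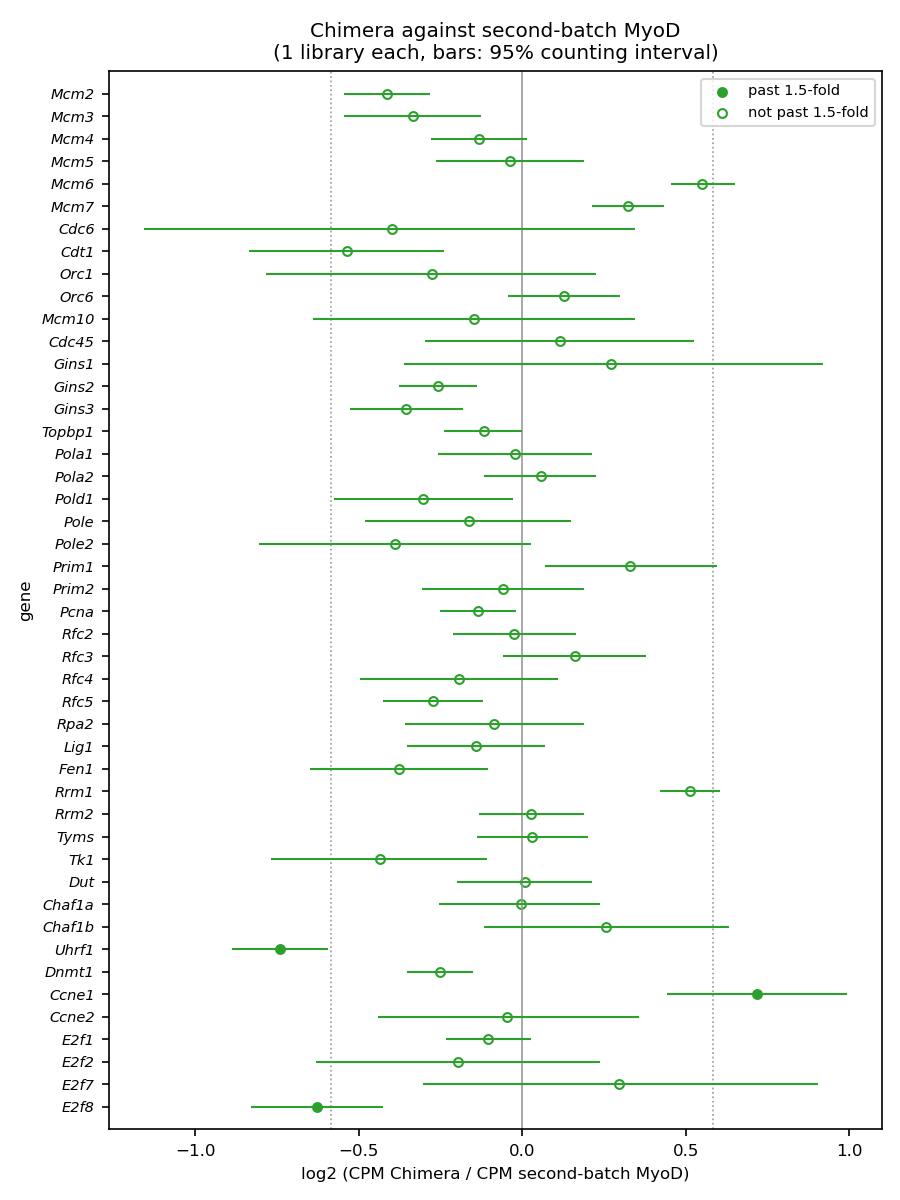
Log2 ratio of CPM in Chimera over second-batch MyoD (x axis) for the 46 members (y axis), with 95% counting intervals and dotted lines at 1.5-fold. Ccne1 lies past the line on the right and Uhrf1 and E2f8 on the left, and no bar shows spread between cultures.

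Set side by side across the tables, which were counted separately, both libraries of the second table held low levels of the members. The median log2 ratio to the GFP mean was -0.40 in Chimera and -0.35 in second-batch MyoD, and 0.07 and -0.04 in 1x and 2x MyoD of the first table. In Chimera and second-batch MyoD this median was -1.15 and -0.81 in the mitosis genes. It was -0.19 and -0.15 in the other replication genes, and -0.00 and -0.02 in the G1-S regulators. Tk1 was at 5.73 and 7.76 CPM in the second table and at 17.7 and 14.4 CPM in 1x and 2x MyoD. Mcm5 was at 13.5 and 13.9 CPM against 27.1 and 23.3 CPM. Gins3 (20.9 and 26.7 CPM) and E2f8 (14.2 and 22.0 CPM) lay above the GFP libraries of the first table in both. Measured against 1x MyoD of the first batch instead, 21 members were lower in Chimera by at least 1.5-fold and 0 higher, where 12.1% and 13.7% of 14424 genes were. Batch, table and virus cannot be told apart there.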

How the data were processed

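RNA of 12 libraries was sequenced after oligo-dT selection, per the labels' protocols. The submitters' processing notes name CASAVA 1.8.2, TopHat2 2.0.8 and the build mm9. The sources used here give no counter, annotation release or use of strand. Of the deposited tables, the first gives expected counts, of which 1982 to 2767 genes in each library have values that are not whole (tolerance 1e-06). These were rounded. The second gives whole-number counts, as the authors deposited them. GENCODE vM21 supplied symbols for 32610 of the 37287 IDs and for all 46 members. Mitochondrial genes (37) are at 0 in the first table but hold 4.05% and 4.18% of the counts of the second. They were therefore left out of CPM totals, and no fit joins the tables.

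The labels give GFP (5 libraries), MyoD (2), Myf5 (2), no virus (1), Chimera (1) and second-batch MyoD (1). The first table was fitted with edgeR 4.0.16 (R 4.3.3) by the two-sided quasi-likelihood test with TMM scaling, Benjamini-Hochberg adjusted over the 13825 genes that reached a CPM of 1 in 2 or more libraries. The biological coefficient of variation was 0.157 at 6 residual degrees of freedom, and 0.106 at 5 once the MOI libraries had their own group. The MOI slope had 2 residual degrees of freedom over 13383 genes, and the dose terms had 5 and 4. Each SE follows from the F statistic of that test. Where a group had 1 library, its spread was taken to equal that of the rest. Chimera was compared by CPM ratio and exact 95% binomial interval, for genes that reached 50 counts. Reads without molecular identifiers are not independent molecules, so the interval covers counting error only.

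The members and the gene lists were chosen with earlier results of these data known, and 1 of 30 written G1-S regulators matched no symbol. Every member could be named, with full statistics for 1 or more genes per role and for up to 5 called members at each end of a comparison. Of the other lists, up to 3 called genes with the smallest p could be named, along with Cdkn1a, Ccnd1, Rb1, E2f3, Ccna2, Cdk1 and Mki67. Alternatives were 1x GFP as the only control, DESeq2 size factors, DESeq2 1.42.0, no filter on low counts, other prior or minimum counts, first-batch MyoD as the reference of Chimera, and each library left out. Leaving out the no virus library, or both MyoD libraries, and a dose term between MyoD and Myf5 were added after seeing the data. The fit was run on simulated data that varied less between libraries than the real data, so that run does not give the error rate of the calls.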

Additional observations from a re-analysis of the deposited data

Results flagged for a closer look

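Among the 5 GFP libraries, 1 library stood apart from the other 4 (by Dixon's ratio of its gap to the range) for 6 of the 46 members. Chance flags about 1 in 20 such groups, and the members are not independent of each other. In all 6 cases the library was 1x GFP. It was the highest for 5: Rrm1 at 103.9 CPM against 80.5 to 82.8 CPM, Cdt1 at 23.9 CPM against 13.0 to 14.8 CPM, Lig1 at 40.97 CPM against 23.6 to 27.4 CPM, Orc1 at 5.079 CPM against 3.89 to 4.16 CPM, and Orc6 at 21.69 CPM against 20.5 to 20.8 CPM. It was the lowest for Ccne2, at 4.392 CPM against 5.41 to 5.60 CPM. The part of depth or of virus dose in these values was not tested.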

How the results depend on the processing

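The count of members above GFP without virus stayed within 1.5 times its value of 41 under every alternative run, and ran from 39 to 43 with a library left out. The MyoD count of 15 ran from 7 (without 2x MyoD) to 25 (without 1x GFP). The Myf5 count of 4 was 1 with 1x GFP as the only control and 8 by DESeq2, and ran from 1 (without 2x Myf5) to 26 (without 1x GFP). The count of 1 between MyoD and Myf5 was 9 with the MOI libraries apart, 2 with DESeq2 size factors, 5 by DESeq2, 2 without the filter on low counts 2 without the no virus library and 2 with the 1x or 2x dose as a term, and ran from 0 to 9 with a library left out. With DESeq2 size factors 4.48% of all genes were higher with MyoD and 1.15% lower. Without the filter these shares were 2.4% and 0.488%, and without the no virus library 4.6% and 1.17%. The MOI trend's 3 was 0 by DESeq2 and ran from 0 (without the MOI of 120) to 5 (without that of 60). Without the MOI of 60, 6.05% of all genes rose and 5.65% fell along the series. The 17 between the MOI libraries and 1x GFP ran from 9 (without the MOI of 30 or 60) to 14 (without that of 15). Without the MOI of 15, 10.6% of all genes rose and 10.4% fell. The Chimera count of 3 was 21 against first-batch 1x MyoD, all lower, where 12.1% of all genes were lower. The cause of these changes was not tested. Of 1701 values of single genes under an alternative, 191 lost their call, 30 gained one, and 1480 kept their side of the threshold, with a change of sign in 32 values that were not called. The replicate numbers only name libraries in accession order and pair none. MyoD and Myf5 share the doses of 1x and 2x, and the fit with dose as a term, given above, is the 1 that pairs them. The 4 MOI libraries are the shallowest of the first table, so their values of genes such as E2f2, at 0.60 to 1.17 CPM, rest on the fewest counts.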
